A study of Homo sapiens with 6 samples.

Results

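The regions described here were distal stretches of open chromatin that lay close together in runs along the chromosomes of GM12878, a human line of B lymphoblastoid cells that Epstein-Barr virus transformed. Peak summits on chromosomes 1 to 22 from 6 libraries were chained into a region where they lay under 500 bp apart, which gave 91874 regions. Of these, 53269 were called in both live libraries, and 42127 of those lay over 1 kb from either annotated end of every protein-coding gene. Regions whose midpoints were at most 12.5 kb apart were joined, and the 3235 regions in joined groups of 5 or more, 523 clusters in all, are called clustered regions below. They made up 7.68% of the distal regions and 3.52% of all regions. The live calls and the positions chose them, so their presence in both live libraries and their density are descriptions of the choice and were not tested.

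Open chromatin was mapped by InTAC-seq, which adapts ATAC-seq (cutting and tagging of open DNA by the transposase Tn5) to cells that have been fixed and stained inside. The H3K27ac-high group (2 libraries) and the H3K27ac-low group (2 libraries) came from low-passage GM12878 cells that were fixed with paraformaldehyde, stained with an antibody and sorted for size, viability and staining, and their crosslinks were reversed after transposition. The live control group (2 libraries) came from live, unsorted cells whose DNA was purified straight after transposition. Sorting, fixation and crosslink reversal therefore separate both sorted groups from the live group and cannot be told apart. The labels name the sorted mark H3K27ac but write H3K37ac for the antibody in the staining step. Cells were divided into replicates of 50000, and the spread between replicates, which the p-values measure, may be technical. All cells were of 1 cell line.

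Distal open regions include enhancers, stretches of DNA where transcription factors bind and from which they raise transcription of genes some distance away. Acetylation of histone H3 at lysine 27 marks active enhancers and promoters, and runs of closely spaced active enhancers are often found beside the genes that define a cell's identity. In B lymphoblastoid cells, viral proteins act through NF-kB, RBPJ and B cell transcription factors, and many of the enhancers known in these cells carry binding sites for them.

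Some clustered regions held annotated transcription starts inside or beside a gene, because distance was measured to the outer ends of protein-coding genes. Of 3235 clustered regions, 149 (4.61%, 95% exact interval 3.91 to 5.39%) overlapped the window from 250 bp before to 50 bp after a RefSeq transcript start, against 1640 of 38892 other distal regions (4.22%, 4.02 to 4.42%). These windows belonged to 77 protein-coding and 69 long non-coding RNA genes. The sequences of 8 are printed because they are the starts, within clusters, of B cell and NF-kB genes and of 2 non-coding RNAs. They were chosen after the positions of all such windows were known. The regions at the IRF5, TNIP1 and LOC124902154 starts were called in every library. Those at PRDM1, TRAF1 and MIR155HG were not called in high replicate 1, and that at POU2F2 was called in neither high library. The region at the CCR6 start was not called in low replicate 2. Each is the RefSeq sequence of GRCh38.p14, written 5′ to 3′ on the strand of the gene, in lower case with matches to any of 7 consensus motifs in capitals.

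CCR6 encodes a chemokine receptor of B cells, IRF5 and POU2F2 encode transcription factors of B cells, and PRDM1 encodes the factor that drives plasma cell differentiation:
CCR6, chr6:167122846-167123145, plus strand: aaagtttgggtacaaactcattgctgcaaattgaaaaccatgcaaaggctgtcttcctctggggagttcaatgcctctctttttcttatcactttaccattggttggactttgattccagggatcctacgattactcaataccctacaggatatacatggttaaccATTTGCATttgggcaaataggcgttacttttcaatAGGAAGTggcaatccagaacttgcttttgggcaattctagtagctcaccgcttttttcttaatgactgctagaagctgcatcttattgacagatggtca
IRF5, chr7:128940420-128940719, plus strand: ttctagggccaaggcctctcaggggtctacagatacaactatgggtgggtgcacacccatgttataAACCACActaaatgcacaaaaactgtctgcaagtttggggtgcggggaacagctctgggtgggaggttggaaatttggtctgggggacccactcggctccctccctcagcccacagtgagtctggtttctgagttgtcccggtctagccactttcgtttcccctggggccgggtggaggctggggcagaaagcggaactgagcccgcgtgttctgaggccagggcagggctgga
POU2F2, chr19:42132397-42132696, minus strand: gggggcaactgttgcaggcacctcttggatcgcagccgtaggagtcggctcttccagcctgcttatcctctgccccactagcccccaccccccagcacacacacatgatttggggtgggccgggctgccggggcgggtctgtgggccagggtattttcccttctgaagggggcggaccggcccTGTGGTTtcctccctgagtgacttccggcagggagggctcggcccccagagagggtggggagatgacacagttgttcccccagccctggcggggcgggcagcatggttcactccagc
PRDM1, chr6:106086086-106086385, plus strand: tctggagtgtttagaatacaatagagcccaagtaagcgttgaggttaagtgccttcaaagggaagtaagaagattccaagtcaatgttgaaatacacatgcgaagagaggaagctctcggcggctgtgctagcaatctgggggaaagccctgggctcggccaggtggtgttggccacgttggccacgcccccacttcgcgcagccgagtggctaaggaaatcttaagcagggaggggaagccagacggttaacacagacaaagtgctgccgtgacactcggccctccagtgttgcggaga

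TRAF1 encodes a signalling adaptor and TNIP1 a restraint on NF-kB signalling, MIR155HG is the host transcript of miR-155, and LOC124902154 is an uncharacterised non-coding RNA:
TRAF1, chr9:120926747-120927046, minus strand: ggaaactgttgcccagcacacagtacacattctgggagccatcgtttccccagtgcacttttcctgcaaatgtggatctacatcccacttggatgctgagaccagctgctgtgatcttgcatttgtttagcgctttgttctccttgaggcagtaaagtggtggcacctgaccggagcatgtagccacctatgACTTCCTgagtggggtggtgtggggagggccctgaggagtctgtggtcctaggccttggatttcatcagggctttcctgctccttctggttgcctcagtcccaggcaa
TNIP1, chr5:151080985-151081284, minus strand: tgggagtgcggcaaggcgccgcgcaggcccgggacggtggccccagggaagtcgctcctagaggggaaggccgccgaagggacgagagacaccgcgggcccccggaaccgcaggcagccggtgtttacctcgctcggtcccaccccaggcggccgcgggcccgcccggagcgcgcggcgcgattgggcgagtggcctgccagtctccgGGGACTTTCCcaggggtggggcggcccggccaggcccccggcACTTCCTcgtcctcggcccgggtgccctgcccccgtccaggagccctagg
MIR155HG, chr21:25561895-25562194, plus strand: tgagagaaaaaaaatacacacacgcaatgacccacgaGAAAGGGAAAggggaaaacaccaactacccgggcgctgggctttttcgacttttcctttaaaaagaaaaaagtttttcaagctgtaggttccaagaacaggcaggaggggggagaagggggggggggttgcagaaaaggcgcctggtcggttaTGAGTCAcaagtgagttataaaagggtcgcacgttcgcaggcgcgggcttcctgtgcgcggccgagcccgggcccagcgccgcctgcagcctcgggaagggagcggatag
LOC124902154, chr9:37409029-37409328, minus strand: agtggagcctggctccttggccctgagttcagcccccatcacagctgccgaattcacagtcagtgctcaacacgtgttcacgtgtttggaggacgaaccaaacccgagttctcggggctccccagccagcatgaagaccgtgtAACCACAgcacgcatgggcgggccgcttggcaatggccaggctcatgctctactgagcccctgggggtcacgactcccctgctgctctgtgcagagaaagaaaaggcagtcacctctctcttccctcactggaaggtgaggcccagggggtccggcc

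The motifs searched on both strands were ETS (AGGAAGT), OCT (ATTTGCAT), AP-1 (TGANTCA), RUNX (TGTGGTT), NF-kB (GGGAN followed at once by TTNCC), IRF (GAAAN followed at once by NGAAA) and EBF1 (TCCCN followed at once by NGGGA), each searched on its own, so that matches could overlap. The CCR6 window held an OCT and an ETS match, the TNIP1 window an NF-kB and an ETS match, and the MIR155HG window an IRF and an AP-1 match. IRF5, POU2F2 and LOC124902154 each held a RUNX match and TRAF1 an ETS match, and the PRDM1 window held none of the 7.

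Over the 166 start windows in clustered regions, 16.3% held the ETS letters, against 11.3% of 1941 windows in other distal regions and 8.27% of all 33725 windows of the same length. AP-1 letters were in 12.7% of the windows in clustered regions, against 8.55% in other distal regions and 7.67% of all windows. RUNX letters were in 7.83%, against 5.51% and 4.28%, and IRF letters in 6.02%, against 4.38% and 3.57%. NF-kB letters were in 2.41%, against 1.80% and 1.41%, OCT letters in 1.81%, against 2.06% and 1.75%, and EBF1 letters in 1.20%, against 1.24% and 1.22%. The median GC content of the windows was 60.8% in clustered regions, 64.0% in other distal regions and 58.7% in all windows. A match describes the letters only, and these shares were not tested.

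The lists differed in length. After chaining, the high libraries had 24326 and 44046 regions, the low libraries 39714 and 49111, and the live libraries 66381 and 68626. Read depth is unknown, since the lists hold summits and scores only. Each library's regions were therefore also ranked by score, and the best 24326 were kept, which is the whole list of high replicate 1. These are called lists of equal length. High replicate 1 thus enters both kinds of list with every region it has.

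The clusters were compact. They had a median of 6 clustered regions and at most 14, and 241 of the 523 had just 5. Their spans had a median of 28917 bp, with a shortest of 7925 bp at IRF5 and a longest of 87050 bp at CYTH1, and summed to 15.7 Mb. Neighbouring clustered regions lay a median of 5575 bp apart, and 18.7% of the 2712 gaps were under 2 kb. A clustered region lay a median of 25466 bp from the nearest protein-coding gene end, against 29070 bp for the 38892 other distal regions. In all, 379 clusters overlapped a protein-coding gene, 121 lay between genes with an end within 100 kb, and 23 had none that near.

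Within genes lay 57.8% of the clustered regions (95% exact interval 56.1 to 59.5%), against 52.5% of the other distal regions (52.0 to 53.0%). The share of distal regions that belonged to clusters differed among chromosomes, with 14.4% on chromosome 15, 12.1% on chromosome 14, 4.46% on chromosome 22 and 4.28% on chromosome 20. Chromosome 15 carried the clusters at RORA and USP3, among 26 in all. Only 18 clustered regions lay in broad windows of whole megabases around the immunoglobulin and MHC loci. They were the 3 clusters at GPR132, EIF2AK3 and POU5F1, and the windows reach beyond the loci themselves. Cluster spans also held 557 regions that were not chosen, of which 87 lay at a gene end, 326 were called in 1 live library and 144 in neither. Of these 144, 109 were called in 1 sorted library alone and none in all 4.

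Genes of B cells and of NF-kB signalling lay near clusters more often than the average protein-coding gene. Of 19126 protein-coding genes on these chromosomes, 1014 (5.3%) had a cluster within 50 kb. Among genes of B cell identity, 14 of 40 did, and in the list of NF-kB signalling with lymphoblastoid activation 12 of 34. Plasma cell genes followed with 4 of 11, growth and cell cycle genes with 3 of 12 and genes of survival and death with 3 of 13. The lists share genes, and IRF4 is counted in both the NF-kB and the plasma cell list. Its nearest cluster lies 49468 bp away, just inside 50 kb. The lists were chosen with earlier results of these data known, and their counts are descriptions.

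**Figure D1:**
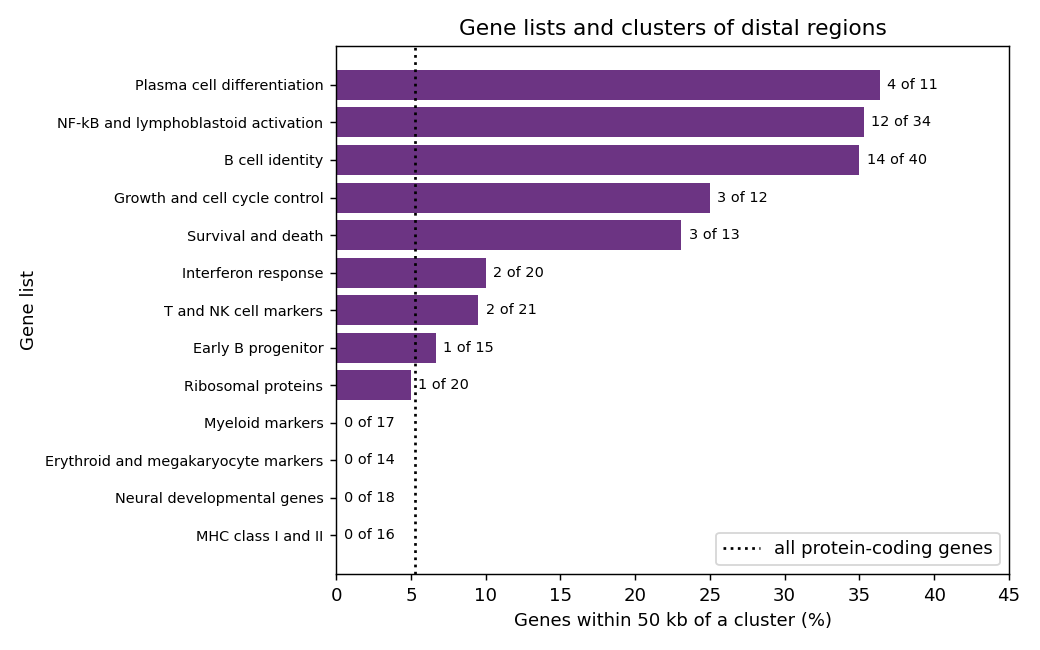
Share of the genes of each of 13 lists (horizontal axis, percent) that had a cluster of distal regions within 50 kb, with the number of genes beside each bar. The dotted line marks 5.3% of all protein-coding genes. Plasma cell, NF-kB and B cell lists stand at the top, and 4 lists stand at 0.

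The other lists had lower shares than those above. Interferon response, T and NK cell and early B progenitor genes still stood above the 5.3% of all protein-coding genes. Near a cluster were 2 of 20 interferon response genes (IRF1 and IFI16), 1 of 15 early B progenitor genes (CD34, beside the cluster at CD46) and 1 of 20 ribosomal protein genes (RPS14, beside the cluster at CD74). Among markers of other lineages, 2 of 21 T and NK cell genes were near one, the T cell transcription factors TCF7 and EOMES. The counts were 0 of 17 for myeloid markers, 0 of 14 for erythroid and megakaryocyte markers, 0 of 18 for neural developmental genes and 0 of 16 for MHC class I and II genes. These lists are short, and their counts of 0 were not tested against the share of all genes. At up to 100 kb, 2 of 14 erythroid and megakaryocyte markers and 1 of 16 MHC genes had a cluster, against 8.30% of all protein-coding genes. Myeloid and neural lists stayed at 0, and 15 of 40 B cell and 13 of 34 NF-kB genes had one. Genes within 50 kb of a cluster had a median length of 34109 bp, against 24477 bp for all protein-coding genes. The median was 37352 bp in the B cell list and 20946 bp in the NF-kB list. The part of gene length in these counts was not tested.

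Several of these genes had more than 1 cluster within 50 kb, and the counts below are summed over all of them. CD86, which encodes a costimulatory ligand for T cells, had 18 clustered regions in 2 clusters, of which 11 and 11 were in the high lists of equal length, 10 and 11 in the low lists and 8 and 8 in the live lists. CIITA, the master regulator of MHC class II genes, had 11, of which 5 lay in a cluster on the gene and 6 in the cluster at CLEC16A, with 5 in every one of the 6 lists of equal length. POU2AF1, which encodes a coactivator of octamer-binding factors, lay near a cluster of 7, with 4 and 6 in the high lists, 3 and 4 in the low lists and 5 and 5 in the live lists. CXCR4, a chemokine receptor gene, lay near a cluster of 6, of which 3 and 3 were in the high lists, 4 and 4 in the low lists and 2 and 2 in the live lists. The high and low counts were equal at CIITA, overlapped at CD86 and POU2AF1 and lay 1 region apart at CXCR4, where the low lists held more. In full lists the CXCR4 counts met at 5, with 3 and 5 in the high libraries, against 6 and 5 in the low libraries. The remaining B cell genes near clusters, named to complete the list, were MEF2C with 16 clustered regions in 3 clusters, LYN with 11 in 2 clusters, FLI1, IKZF3, IRF8 and POU2F2 with 6 each, and CD74, CD80, EBF1 and IKZF1 with 5 each. MEF2C, a transcription factor of B cells, had 8 and 9 of its 16 in the high lists, 8 and 6 in the low lists and 7 and 6 in the live lists.

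Among NF-kB and activation genes, CCR7 had the most. CCR7, which encodes a receptor that guides lymphocytes to lymphoid tissue, had 13 clustered regions in 2 clusters, of which 3 and 3 were in the high lists of equal length, 6 and 6 in the low lists and 3 and 3 in the live lists. IRF2, a transcription factor that binds interferon response elements, had 9, of which 5 and 5 were in the high lists, 5 and 6 in the low lists and 4 and 3 in the live lists. IRF4, a transcription factor of activated B cells and plasma cells, had 7 nearby in the cluster at DUSP22, with 6 and 5 in the high lists, 5 and 5 in the low lists and 5 and 5 in the live lists. TNFAIP3, which encodes an inhibitor of NF-kB signalling, had 7 nearby, with 2 in every list of equal length. The high and low lists of equal length overlapped at IRF2, IRF4 and TNFAIP3 and did not at CCR7, where the low lists held more. In full lists the CCR7 counts overlapped, at 3 and 10 in the high libraries, against 7 and 9 in the low libraries. The other 8 genes of this list near clusters, again named to complete it, were TRAF3 with 10 clustered regions in 2 clusters, JUNB, RBPJ and TNIP1 with 6 each and BATF3, CD58, NFKB1 and TRAF1 with 5 each.

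Plasma cell, survival and growth genes had between 5 and 15 clustered regions each. ELL2, an elongation factor needed for immunoglobulin secretion in plasma cells, had 15 in 2 clusters, of which 7 and 8 were in the high lists of equal length, 8 and 9 in the low lists and 6 and 7 in the live lists. PRDM1 had 8, of which 3 and 5 were in the high lists, 5 and 5 in the low lists and 3 and 4 in the live lists. BCL2, which encodes an inhibitor of apoptosis, had 15 in 2 clusters, with 9 and 8 in the high lists, 8 and 8 in the low lists and 6 and 6 in the live lists. The live lists held fewer of the BCL2 regions in all, through its cluster of 9 (6 and 5 high, 5 and 5 low, 2 and 4 live), while in its cluster of 6 every sorted list held 3 and the live lists 4 and 2. CDKN1A, which encodes a cell cycle inhibitor, had 8, with 2 and 2 in the high lists, 3 and 3 in the low lists and 4 and 3 in the live lists, so that the high lists held fewer than the low lists. In full lists the CDKN1A counts overlapped, at 2 and 5 in the high libraries, against 3 and 6 in the low libraries. BCL2L1 and BCL2A1, both of the BCL2 family, had 7 and 6, CDKN1B and CDK6, which act on entry into the cell cycle, had 6 and 5, and CD38 had 5.

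The largest clusters, of 14 clustered regions each, lay at CYTH1, which encodes an exchange factor for ARF proteins, LIMS1, which encodes an adaptor of cell adhesions, and CCR6. Those at RORA, a nuclear receptor gene, and KLHL6, a gene of B cell receptor signalling and germinal centres, had 13, and that at RGS1, a brake on chemokine receptor signalling, had 12. Those with 11 were at HECW2 (a ubiquitin ligase), GPR25 with INAVA, ILDR1 with CD86, HIVEP2 (a zinc finger protein that binds sequences related to NF-kB sites), PLCG2 (the phospholipase downstream of the B cell receptor), CXXC5 and USP3 (a deubiquitinase of histones). The larger cluster at ELL2 and the one at LRCH1 had 10.

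**Figure D2:**
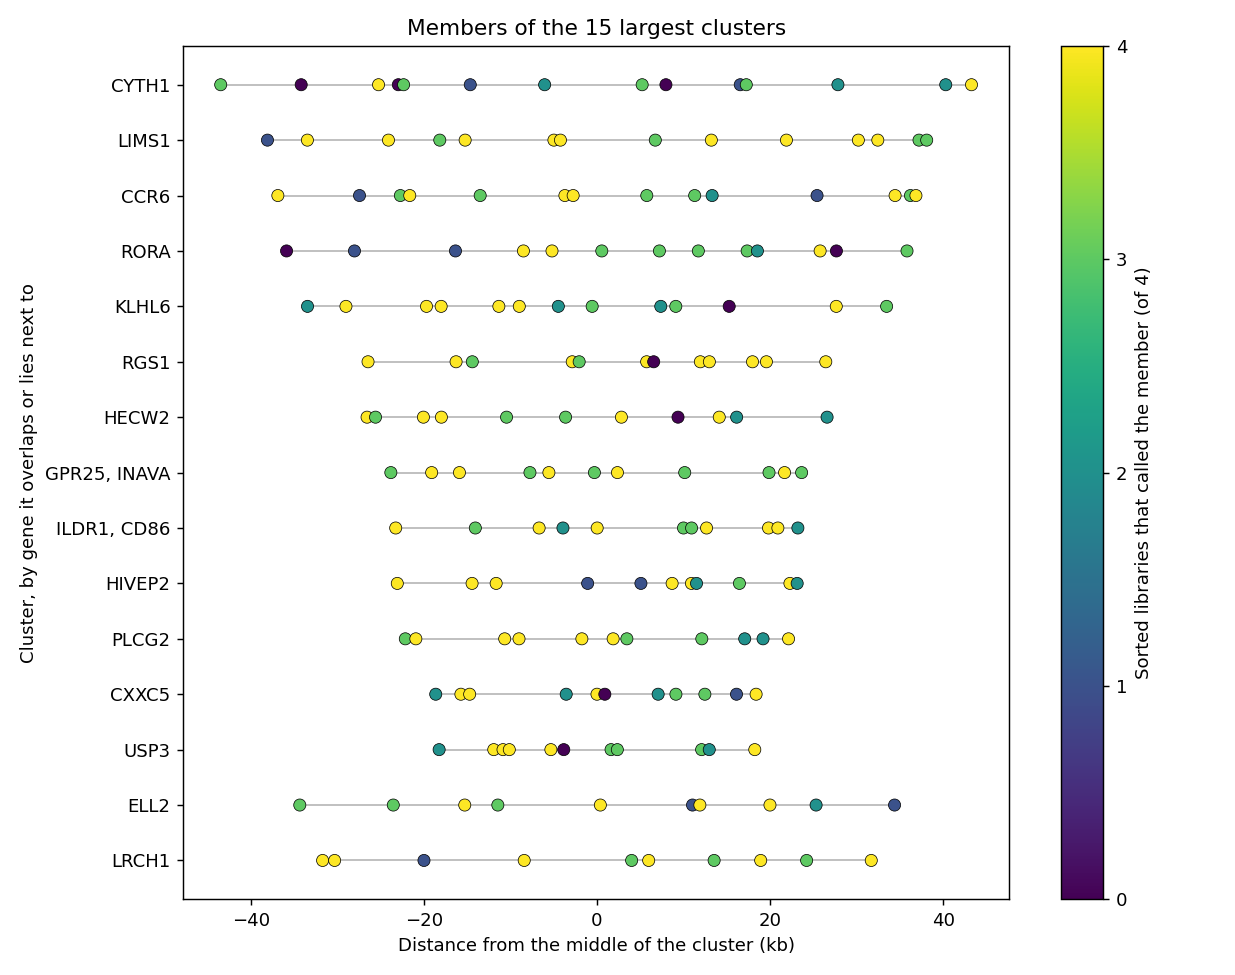
Positions of the clustered regions (points) in the 15 largest clusters, as distance from the middle of the cluster (horizontal axis, kb), coloured by how many of the 4 sorted libraries called them in their full lists. Clusters are named by the gene they overlap or lie beside. Regions called in all 4 and regions called in 0 or 1 lie side by side, as at CYTH1, while at LIMS1 all 14 were called in at least 1.

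These clusters were kept to different degrees in the sorted libraries. At CYTH1 2 and 8 of 14 were called in the full lists of the high libraries and 8 and 10 in those of the low libraries. At LIMS1 11 and 12 of 14 were called in the high libraries, against 12 and 14 in the low libraries. In lists of equal length, LIMS1 had 11 and 11 of 14 in the high libraries, with 9 and 9 in the low libraries and with 7 and 7 in the live libraries. LIMS1 was thus higher in the high lists than in the low lists, and lowest in the live lists, without overlap. CYTH1 had 2 and 4 in the high lists of equal length, 5 and 4 in the low lists and 6 and 5 in the live lists, so that its sorted groups met at 4.

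CCR6 and RGS1 show clusters whose sorted groups overlapped. At CCR6 7 and 9 of 14 were in the high lists of equal length, 7 and 8 in the low lists and 7 and 7 in the live lists. At RGS1 9 and 9 of 12 were in the high lists, 9 and 10 in the low lists and 6 and 7 in the live lists. At PLCG2 6 and 10 of 11 were in the high lists, 8 and 8 in the low lists and 7 and 7 in the live lists. The pair of high libraries stood on either side of the low libraries at PLCG2.

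The region with the best live ranks was found in each of these clusters, and those at RGS1, HECW2, CCR6 and RORA are given here, chosen after their values were seen. At RGS1 it lay at chr1:192517024-192517043, 58730 bp from the nearer RGS1 end, and ranked 53 and 478 in the high libraries, with 736 and 3176 in the low libraries and with 2268 and 3525 in the live libraries. At HECW2 it lay at chr2:196242443-196242511 and ranked 761 and 1215 in the high libraries, with 4207 and 3426 in the low libraries and with 3213 and 1562 in the live libraries. At CCR6 it lay at chr6:167079982-167080055 and ranked 1574 and 3577 in the high libraries, with 7810 and 6142 in the low libraries and with 3344 and 2470 in the live libraries. A lower number is a better rank, and at these 3 the region stood among the best 12163 of every list. The lists differ in length, so these ranks are given side by side and show no change. At RORA the best region, chr15:60592551-60592618, was not called in high replicate 1 and ranked 17655 in high replicate 2, with 11853 and 8879 in the low libraries and with 12584 and 11204 in the live libraries.

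Clustered regions were called in every sorted library more often than other distal regions. In full lists, 44.6% (95% exact interval 42.9 to 46.3%) and 80.4% (79.0 to 81.8%) of the clustered regions were called in the high libraries, against 70.9% (69.3 to 72.4%) and 83.7% (82.4 to 84.9%) in the low libraries. The shares of other distal regions were 33.6% and 64.8% in the high libraries, against 57.8% and 70.6% in the low libraries. In lists of equal length, 44.6% and 49.5% of the clustered regions were called in the high libraries, with 48.3% and 49.0% in the low libraries, against 42.5% and 42.6% in the live libraries. Other distal regions stood at 33.6% and 36.1% in the high lists, 35.1% and 35.4% in the low lists and 37.1% and 37.2% in the live lists.

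The difference between clustered and other distal regions in lists of equal length was 11.0 and 13.4 points in the high libraries, against 13.2 and 13.6 points in the low libraries. Its mean was 12.8 points, and it was positive in 4 of 4 sorted libraries (exact sign-flip permutation test over libraries, two-sided p = 0.125, the smallest that 4 libraries allow). In full lists the mean difference was 13.2 points (exact p = 0.125). Clustered regions stayed below regions at gene ends, of which 67.2% and 72.0% were in the high lists of equal length and 75.6% and 75.5% in the low lists.

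**Figure D3:**
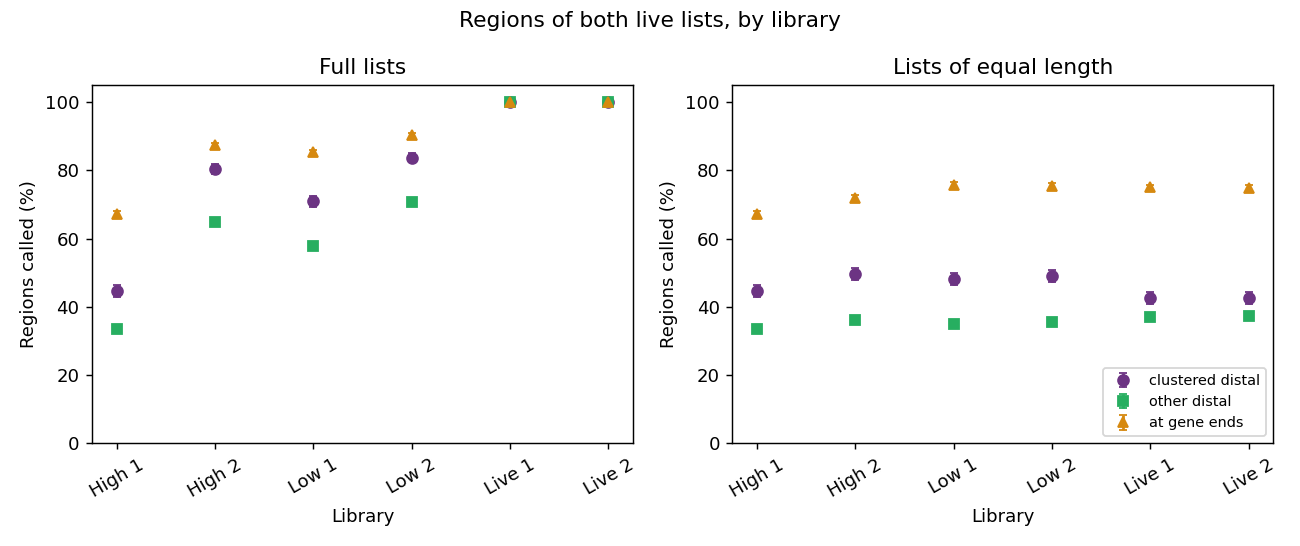
Share of regions called (vertical axis, percent) in each library, in full lists on the left and in lists of equal length on the right, for clustered distal regions (circles), other distal regions (squares) and regions at gene ends (triangles). Bars are 95% exact binomial intervals and cover counting error only. Clustered regions lie between the other sets in every sorted library, and in full lists the live shares are 100% by the choice of regions.

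Clustered regions also had better live ranks than other distal regions, with a median mean rank of 28773 against 31891. The distal regions were therefore divided into 10 classes by mean live rank. In each of the 10 classes and in each of the 4 sorted libraries, the share called was higher among clustered regions than among other distal regions. In the third class from the best, 70.1% and 80.5% of clustered regions were in the high lists of equal length, against 52.6% and 63.2% of the other distal regions. In the low lists of that class the shares were 74.1% and 77.8%, against 60.9% and 62.8%. In the worst class, 11.0% and 4.82% of clustered regions were in the high lists, against 4.54% and 2.23% of the other distal regions. The low lists of the worst class held 4.39% and 3.95% of clustered regions, against 2.89% and 2.11% of the other distal regions. With the other distal regions weighted to the clustered regions' shares of the classes, the mean difference was 9.11 points, positive in 4 of 4 sorted libraries (exact sign-flip permutation test, two-sided p = 0.125).

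**Figure D4:**
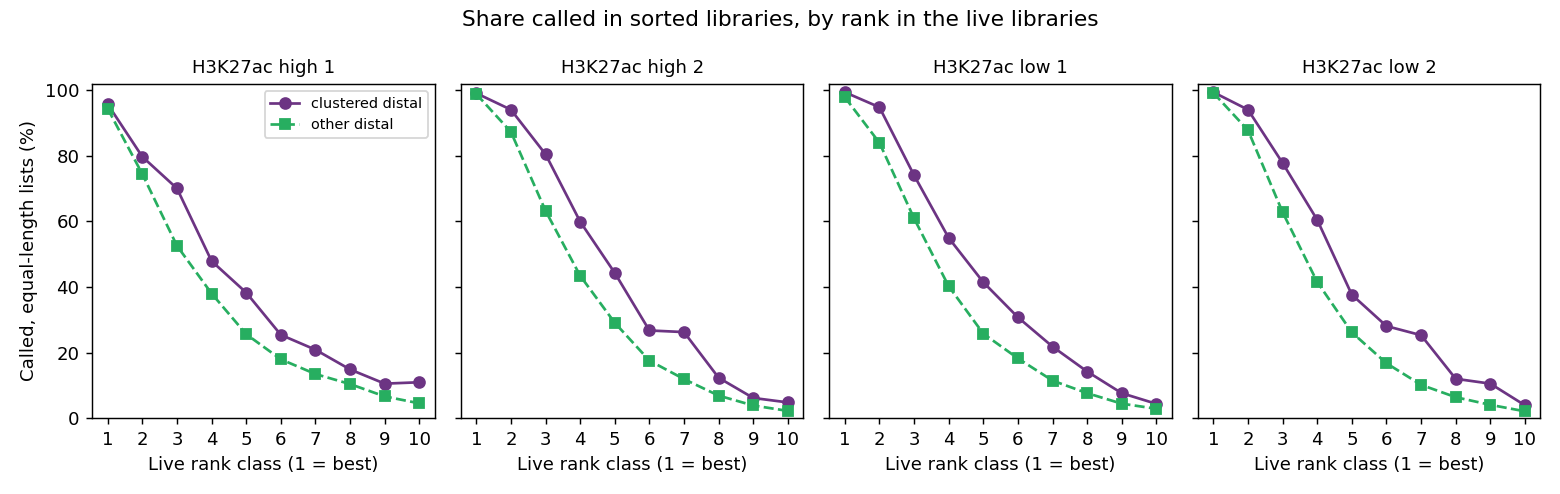
Share of distal regions in lists of equal length (vertical axis, percent) by class of mean live rank (horizontal axis, 1 is the best), for each of the 4 sorted libraries. Clustered regions (circles, solid line) lie above other distal regions (squares, dashed line) in all 10 classes of all 4 libraries.

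Most of the rise with group size came below the threshold of 5. Single distal regions were in the lists of equal length for 29.6% and 31.3% in the high libraries, against 30.8% and 30.6% in the low libraries. Groups of 2 stood at 36.1% and 39.0% in the high libraries, against 38.0% and 38.7% in the low libraries. Groups of 3 stood at 40.6% and 45.5% in the high libraries, against 42.2% and 43.7% in the low libraries. On either side of the threshold, groups of 5 (1205 regions) stood at 42.0% and 47.5% in the high lists and 46.2% and 47.2% in the low lists, and groups of 4 (2328 regions) at 44.9% and 49.3% in the high lists and 47.2% and 48.3% in the low lists. Regions in the 13 clusters of over 10 reached 50.3% and 58.0% in the high lists and 52.2% and 54.8% in the low lists, against 40.8% and 44.6% in the live lists.

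**Figure D5:**
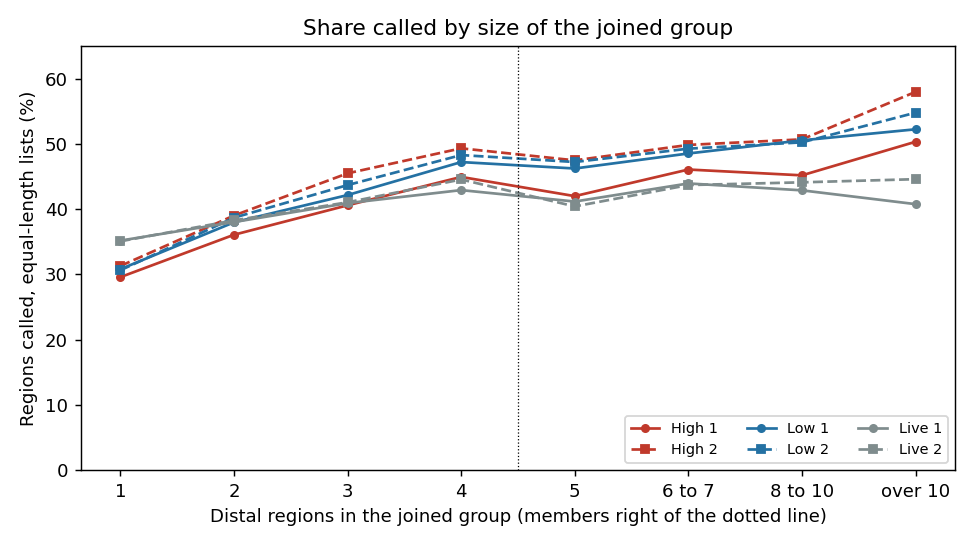
Share of distal regions in lists of equal length (vertical axis, percent) by the number of distal regions in the joined group (horizontal axis), 1 line per library. Clustered regions lie right of the dotted line. The sorted lines climb over groups of 1 to 4, and groups of 5 lie slightly below groups of 4 in all 6 libraries.

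The groups sorted for high and low staining did not differ detectably in how many clustered regions they held. In lists of equal length the share was 47.0 ± 3.50% in the high group and 48.6 ± 0.50% in the low group (SD, n = 2 each), a difference of -1.56 points (exact permutation test over libraries, two-sided p = 1). The high values lay on either side of the low values, and without high replicate 1 the difference was 0.912 points. The difference between clustered and other distal regions was lower in the high group (high minus low -1.18 points, exact permutation p = 0.667). With 2 libraries a group, an exact test cannot give a p below 0.333. In full lists the share was 62.5 ± 25.3% in the high group and 77.3 ± 9.05% in the low group (SD, n = 2 each; high minus low -14.8 points, exact p = 0.667).

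Among the clustered regions that were called, those in the high lists of equal length stood at better ranks than those in the low lists, and full lists gave the opposite direction. The median percentile rank in lists of equal length, with 100 the best, was 48.7 and 42.6 in the high libraries, with 38.5 and 38.8 in the low libraries and with 39.6 and 39.5 in the live libraries. The means were 45.6 ± 4.32 in the high group and 38.6 ± 0.21 in the low group (SD, n = 2 each), which did not overlap (high minus low 6.99, exact permutation test, two-sided p = 0.333, the smallest possible). Other distal regions showed a median percentile of 44.2 ± 4.06 in the high group and 39.0 ± 0.10 in the low group (SD, n = 2 each). For clustered regions, high minus low was 3.94 without high replicate 1, and with lists also lengthened to 39714 regions it was 1.06. In full lists the direction turned (high minus low -2.43, exact p = 0.667). Among the best 12163 regions were 21.8% and 20.3% of the clustered regions in the high libraries, with 17.2% and 17.7% in the low libraries and with 16.3% and 15.7% in the live libraries. These did not overlap between the sorted groups (high minus low 3.65 points, exact p = 0.333). The shares of other distal regions did not overlap either, at 15.6% and 14.5% in the high libraries, against 12.9% and 13.1% in the low libraries.

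Taken region by region, 1298 clustered regions (40.1%) were called in the full lists of all 4 sorted libraries, against 29.2% of other distal regions. A further 872 were called in 3, 436 in 2, 363 in 1 and 266 (8.22%) in none, against 17.9% of other distal regions in none. Whole clusters were seldom kept. Every region of the cluster was called in the full lists of both high libraries for 4 clusters and in those of both low libraries for 65. Taken library by library, the full lists held 5 and 149 complete clusters in the high libraries and 78 and 182 in the low libraries. High replicate 1, with the shortest list, thus limits the count of 4. In lists of equal length 2 clusters were complete in both high libraries and 1 cluster in both low libraries. The 4 clusters complete in all 4 sorted libraries lay near CLVS1 and LLPH, with 6 regions each, and at KCND2, a potassium channel gene, and at PYDC5 with IFI16, a sensor of DNA, with 5 each. In the lists of equal length, the PYDC5 and IFI16 cluster had 5 and 4 of 5 in the high libraries, with 4 and 4 in the low libraries and with 5 and 4 in the live libraries.

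Within a cluster the calls in the sorted libraries fell along the order of the live ranks. The region with the best live ranks of each cluster was in the high lists of equal length for 82.4% and 88.1% of the 523 clusters and in the low lists for 89.1% and 90.6%. The third of each cluster was in the high lists for 49.7% and 56.2% and in the low lists for 51.1% and 55.3%. The last of each cluster was in the high lists for 13.6% and 13.0%, in the low lists for 10.5% and 12.8%, and in the live lists for 1.34% and 1.72%. The order was made from the live ranks, so the live shares follow from it. Other sets of regions were not ordered in this way, and the fall is a description. The outermost regions of clusters stood at 43.0% and 47.6% in the high lists and 46.2% and 46.3% in the low lists, a little under inner regions, at 45.3% and 50.4% in the high lists and 49.2% and 50.3% in the low lists.

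In the low lists of equal length, a clustered region was called about as often beside a called neighbour as beside one that was not called. In the high lists it was called somewhat more often beside a called neighbour. Where a clustered region was in the list of equal length, its neighbour was in it too for 47.2% and 51.7% of pairs in the high libraries, against 48.9% and 49.4% in the low libraries. Where it was not, the neighbour was in the list for 43.0% and 48.1% in the high libraries, against 48.4% and 49.6% in the low libraries. Neighbours in groups of 2 to 4 differed by more. There the neighbour of a called region was called for 44.9% and 48.2% in the high libraries, against 45.5% and 46.4% in the low libraries, and the neighbour of one not called for 35.4% and 38.9% in the high libraries, against 37.9% and 38.6% in the low libraries. These shares are descriptions, since neighbours share a library and a locus.

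Clustered regions at annotated starts were in each list more often than those away from them. Of the 149 at starts, 57.7% and 63.1% were in the high lists of equal length, 63.1% and 69.8% in the low lists and 60.4% and 59.1% in the live lists. Of the 3086 away from starts, 43.9% and 48.9% were in the high lists, 47.5% and 48.0% in the low lists and 41.7% and 41.8% in the live lists. Regions within genes stood at 43.6% and 48.5% in the high lists and 47.5% and 47.7% in the low lists, slightly below those between genes, at 45.9% and 51.0% in the high lists and 49.3% and 50.7% in the low lists. Where a clustered region was called in a sorted library, its summit lay a median of 31.0 to 33.5 bp from the middle of the live summits. For other distal regions this distance was 31.5 to 36.5 bp. In clustered regions the summits of the live libraries lay a median of 33.0 bp apart. That is a distance between summits and not to their middle, so the values are not on the same measure.

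Few clustered regions were held by 1 sorted group alone. In lists of equal length, 70 of 3235 (2.16%) were in both high libraries and in neither low library, against a background of 0.974% of all 91874 regions. The reverse, in both low libraries and in neither high library, held for 88 (2.72%), against a background of 1.33%. In other distal regions the shares were 1.77% for high alone and 2.01% for low alone, and the regions in the background include many that were not called in both live libraries. In full lists, 69 of the 70 were called in at least 1 low library, and 81 of the 88 in at least 1 high library. The 81 were all called in high replicate 2, since the list of equal length is the whole list of high replicate 1. Most of these regions were thus called in at least 1 library of each group and differed in rank there. By presence in full lists, which differ in length, 13 clustered regions (0.402%) were called in both high libraries and neither low library, against a background of 0.358% of all regions, and 92 (2.84%) in both low libraries and neither high library, against a background of 3.06%. With each sorted library left out in turn, which asks for 1 call or absence fewer, the first count was 136 to 201 and the second 140 to 264.

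The regions held by the high lists alone with the best ranks lay near GPR19, an orphan receptor gene, OR2AG2, ASAP1, NCK2, FLI1 and NR5A2. The region beside FLI1, which encodes an ETS transcription factor of blood cells, lay at chr11:128720687-128720809. It ranked 13383 and 13040 in the high libraries, against 25186 in low replicate 1, and low replicate 2 did not call it. It ranked 39438 and 25647 in the live libraries. The region beside NCK2, an adaptor of receptor signalling, at chr2:105790296-105790421, ranked 12802 and 8824 in the high libraries, against 25979 in low replicate 2, with no call in low replicate 1. Each of these 2 regions was thus missing from 1 low library and beyond the best 24326 regions of the other.

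The regions held by the low lists alone lay in clusters at HIVEP3, ACOXL, ASB2 with CCDC197, LSM4, TMC8 with C17orf99 and GPR132. The region at HIVEP3, a relative of HIVEP2, lay at chr1:41662347-41662450. It ranked 26447 in high replicate 2, with 10322 and 14796 in the low libraries and with 11872 and 19856 in the live libraries. The region near GPR132, a G protein-coupled receptor gene of lymphocytes, at chr14:105087000-105087034, ranked 24926 in high replicate 2, with 17405 and 14050 in the low libraries and with 10693 and 9810 in the live libraries. High replicate 1, which has the shortest list, called none of the 6, and high replicate 2 called all 6.

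Whole clusters leaned either way in similar numbers. In 40 of 523 clusters (7.65%) both high shares in lists of equal length lay above both low shares, and in 54 (10.3%) below. Among 7282 groups of 2 to 4 distal regions the percentages were 3.65 and 4.17, and groups with fewer regions have fewer possible shares and more ties. The clusters are described by their counts, since a single cluster has too few libraries for a test to pass.

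The clusters with the largest lean towards the high libraries were at TFDP2, CDC42SE2, OR2AG2, LYST, GNG12 and ZBTB38. At TFDP2, a partner of E2F factors, 3 and 4 of 5 were in the high lists of equal length, 1 and 1 in the low lists and 2 and 2 in the live lists. At LYST, a gene of lysosome traffic, 6 and 4 of 7 were in the high lists, 2 and 2 in the low lists and 2 and 3 in the live lists. At OR2AG2, an olfactory receptor gene, 3 and 2 of 5 were in the high lists, 0 and 0 in the low lists and 0 and 1 in the live lists. In the full lists the OR2AG2 cluster had 3 and 5 in the high libraries, against 3 and 4 in the low libraries, so its lean was one of rank. At CDC42SE2 4 and 3 of 5 were in the high lists, 1 and 1 in the low lists and 2 and 2 in the live lists.

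The clusters with the largest lean towards the low libraries were at PNKD with TMBIM1, HMGN4, LAPTM5, CD38, ZDHHC19 and PLEKHO2. At CD38, a surface enzyme of B and plasma cells, 1 and 2 of 5 were in the high lists of equal length, 4 and 3 in the low lists and 2 and 1 in the live lists. At LAPTM5, a lysosomal protein of blood cells that lowers B cell receptor levels, 1 and 1 of 5 were in the high lists, 3 and 3 in the low lists and 3 and 3 in the live lists. At HMGN4, which encodes a nucleosome-binding protein, 0 and 1 of 8 were in the high lists, 5 and 3 in the low lists and 4 and 4 in the live lists. LAPTM5 and HMGN4 were thus as high in the live lists as in the low lists or between them, while the low lists at CD38 stood above the live lists. In full lists HMGN4 had 0 of 8 in high replicate 1 and 5 of 8 in high replicate 2, against 6 and 7 in the low libraries.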

How the data were processed

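Accessibility was listed for 6 libraries of GM12878 cells, 2 per group, with groups and replicate numbers taken from the sample titles. Per the submitters' processing notes, bcl2fastq, FastQC, Bowtie2, Picard and MACS2 and the builds hg38 and hg19 were used. For versions, settings, the Tn5 shift and duplicate removal, the sources used here give nothing. The deposited lists, 1 per library and none pooled, hold single-base summits, each with a score read as the −log10 of a p-value or q-value from the authors' peak caller. The score is the authors' own and was used only to rank regions within a list. Positions past the ends of hg19 chromosomes place the lists on hg38. Depth is unknown, and intervals (Clopper-Pearson) cover counting error only.

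Regions and clusters were made as described above with Python 3.11.15, numpy 2.4.6, pandas 2.3.3 and scipy 1.17.1, and distance was measured from a region's nearer edge. Summits of the sorted libraries helped to place region edges. Ties in score were broken by a seeded draw. Genes and start windows came from RefSeq tables of GRCh38.p14, which give gene ends without strand. Libraries were compared with exact permutation and sign-flip tests, two-sided. The procedure was tested on simulated data. The members, the 14 gene lists (269 of 276 entries matched) and the tests were chosen with earlier results of these data known. The result of 1 of the lists is not reported here.

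Clusters are called by the protein-coding genes they overlap or by the nearest within 100 kb. Named were the 15 largest, up to 4 list genes per list with the largest clusters, the 6 with the largest lean of both high over both low libraries and 6 the other way, and those with every member called in all sorted libraries. Named regions were the best live-ranked member of each of the 15 and the 6 high-only and 6 low-only members with the best ranks. Alternatives covered list length, chaining and joining distance, cluster size, distance from gene ends, live rank, gene density, each library left out and the replicate number as a block.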

Additional observations from a re-analysis of the deposited data

Results flagged for a closer look

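The following values stood out because both high libraries lay on one side of both live libraries and both low libraries on the other. Only the difference in median percentile of clustered regions was tested, as given above (exact permutation test, two-sided p = 0.333, the smallest possible). The other differences were not tested. The median percentile rank of clustered regions in lists of equal length was above the live libraries in the high group and below them in the low group, with a high minus low difference of 6.99. The same held for other distal regions, with a difference of 5.13. Regions at gene ends went the other way, with high below live and low above live, by -5.97 points in their share among lists of equal length and by -8.63 points among the best 12163 regions.

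The clusters at TFDP2, CDC42SE2 and ZBTB38, of 5 regions each, had both high shares above and both low shares below the live shares in lists of equal length. High minus low was 50 points at TFDP2, 50 points at CDC42SE2 and 40 points at ZBTB38. At ZBTB38 4 and 4 of 5 regions were in the high lists, 2 and 2 in the low lists and 3 and 3 in the live lists. In full lists the high and low counts met or overlapped at all 3. They were 3 and 5 in the high libraries against 2 and 5 in the low libraries at TFDP2. At CDC42SE2 they were 4 and 4 against 4 and 5, and at ZBTB38 4 and 5 against 3 and 5. The difference was not tested at these clusters.

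Chromosome X lies outside the rule for clustered regions. Treated the same way, it held 9 clusters with 68 of its 1342 distal regions (5.07%). In full lists 60.3% and 91.2% of these 68 were called in the high libraries and 83.8% and 88.2% in the low libraries.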

How the results depend on the processing

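Of 123 values recomputed under alternatives, 8 reversed, and 19 counts changed by over 1.5 times. The other 96 kept their direction or, as counts and values with no test, stayed near the first value. Their p-values were not compared. Sizes changed, as for the share of clustered regions, high minus low, at -14.8 points in full lists. The higher share of clustered than of other distal regions kept its direction in all alternatives run, at 5.18 to 14.6 points in lists of equal length and 9.67 to 14.5 points in full lists. The share of clustered regions, high minus low, turned to 3.65 points among the best 12163 regions, to 0.912 without high replicate 1 (-4.03 to 0.912 with each sorted library left out), and to 3.14 without that replicate and with lists lengthened to 39714 regions. The difference between clustered and other distal regions, high minus low, turned to 0.21 in full lists, 1.58 among the best 12163, 0.00169 without high replicate 1 (-2.35 to 0.00169 with each sorted library left out) and 2.26 with lists lengthened. The median percentile, high minus low, was -2.43 in full lists. Regions held by the high lists alone numbered 13 in full lists, 7 and 203 with joining up to 6.25 and 25 kb, 124 and 17 in clusters of at least 4 and 8, 136 to 201 with each sorted library left out, and 169 with lists lengthened. Regions held by the low lists alone numbered 32 among the best 12163, 8 and 235 with joining up to 6.25 and 25 kb, 143 and 28 in clusters of at least 4 and 8, and 140 to 264 with each sorted library left out. Joining distance and cluster size change the number of members itself, at 360 and 10562 members for 6.25 and 25 kb, and leaving out a library asks for 1 absence or presence fewer. The cause of the other changes was not tested. The lengthened lists and the alternatives for the mean share of clustered regions called in sorted libraries (66.7 to 71.9%) were chosen after the data were seen.

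With the replicate number as a block, high minus low was -1.56 points for the share (exact permutation p = 1), -1.18 points for the difference from other distal regions (exact p = 0.5) and 6.99 for the median percentile (exact p = 0.5, the smallest a block of 2 allows). Within replicate numbers 1 and 2 the share differed by -3.68 and 0.556 points. Deviations of same-numbered libraries correlated by 0.0952 over clustered regions, so the number was not taken as a pairing. Depth is unknown, and the shortest list sets the length of all lists of equal length.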
